A study of Menidia menidia with 24 samples.

Results

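S4A8 and S4A10 are bicarbonate transporter transcripts of the Atlantic silverside, a small estuarine fish. They were taken by their gene IDs, mme03380 for S4A8 and mme08152 for S4A10, and are 2 of the 17262 transcripts with enough reads to test among 20210 annotated genes. A transcript here means a single gene ID, with its counts summed. RNA was sequenced from 24 whole wild-type larvae at 19 days post-fertilization (dpf), 6 in each of 4 groups. HH larvae came from parents held under combined hypoxia and acidification (HypOA) and were themselves reared under HypOA. CH larvae came from control parents and were reared under HypOA. HC larvae came from HypOA-treated parents and were reared under control conditions, and CC larvae were exposed in neither generation. Per the labels, HypOA rearing was 35% dissolved oxygen and 2500 µatm PCO2, and control rearing 100% and 600 µatm. Parents of HH and HC larvae met HypOA only at night, and each parental treatment was spawned as 1 pool of wild adults, so that treatment and pool cannot be told apart. Every group was sampled at the same age, so rearing treatment and developmental stage also cannot be told apart.

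Both proteins belong to the SLC4 family, whose members carry bicarbonate across the plasma membrane. S4A8 is the sodium-driven chloride/bicarbonate exchanger and S4A10 a sodium-coupled bicarbonate transporter. In mammals both bring bicarbonate into the cell along the sodium gradient and so raise intracellular pH. In the mouse brain S4A8 is known from glutamatergic nerve terminals, and S4A10 from inhibitory neurons and from the choroid plexus epithelium. Bicarbonate and chloride gradients also set the direction of current through GABA-A receptors. In these whole larvae the cells that carried either transcript were not resolved, and fewer cells of a type and less RNA per cell cannot be told apart.

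The symbols S4A8 and S4A10 were read from the rows of the study's own results that list transcripts called between CH and CC. The choice of the pair therefore used CH and CC larvae. Differences between groups that involve CH or CC are given as a description with no test. HH versus HC, whose group means are not part of that contrast, is the only comparison of groups that was tested. HH and HC larvae can still bear on the choice through the spread between larvae, which edgeR estimates over all groups. The pair was also chosen with earlier results of these data known. Correlations between larvae of a group were tested over all 24 larvae on deviations from the group means, which do not hold the differences between groups. Gene lengths were not used here, so the level of S4A8 was not compared with that of S4A10 within a larva.

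Each larva had between 11688851 and 16120500 counted reads (median 12722156.5), and 25.3 to 31.4% of reads per larva were in classes not assigned to a gene. Levels are CPM (read counts per gene relative to library size) scaled by TMM factors of 0.861 to 1.18. S4A8 had 115 to 351 reads per larva and S4A10 had at most 258. Both passed the filter on low counts and lay near the middle of the tested transcripts, with 54.5% of them below S4A8 in mean log2 CPM and 53.4% below S4A10.

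S4A8 was highest in HH larvae, followed by CH, HC and CC. In HH larvae it measured 20.1, 16.6, 17.1, 19.2, 19.4 and 24.6 CPM. In CH larvae it measured 15.3, 18.8, 19.3, 17.2, 13.8 and 19.8 CPM. The larvae of these HypOA-reared groups overlapped widely, and HH larva 6 was the highest of all 24. In HC larvae S4A8 measured 14.7, 14.4, 15.99, 15.2, 13.2 and 16.04 CPM. In CC larvae it measured 9.53, 9.29, 9.72, 9.17, 11.1 and 13.8 CPM. CC larvae were the lowest of the 4 groups, and CC larva 6 was the only one of them to reach into the range of another group. Group means were 19.5±2.83 CPM in HH, 17.4±2.39 in CH, 14.9±1.08 in HC and 10.4±1.79 in CC (s.d., n=6 larvae each).

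S4A10 had another order, with CH larvae the highest. It measured 16.01, 12.9, 12.3, 13.4, 16.2 and 16.7 CPM in HH larvae. It measured 21.5, 17.05, 14.1, 20.2, 16.3 and 18.7 CPM in CH larvae. Each HH larva was below the CH median of 17.9 CPM, although the ranges of these groups overlapped. S4A10 measured 14.4, 13.4, 13.8, 12.5, 17.3 and 15.3 CPM in HC larvae, and 8.83, 10.3, 14.8, 10.9, 15.4 and 14.96 CPM in CC larvae. The CC larvae lay in a lower trio and an upper trio, the upper of which fell inside the range of HC. Group means were 14.6±1.92 CPM in HH, 17.97±2.73 in CH, 14.5±1.68 in HC and 12.5±2.84 in CC (s.d., n=6 larvae each).

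**Figure D1:**
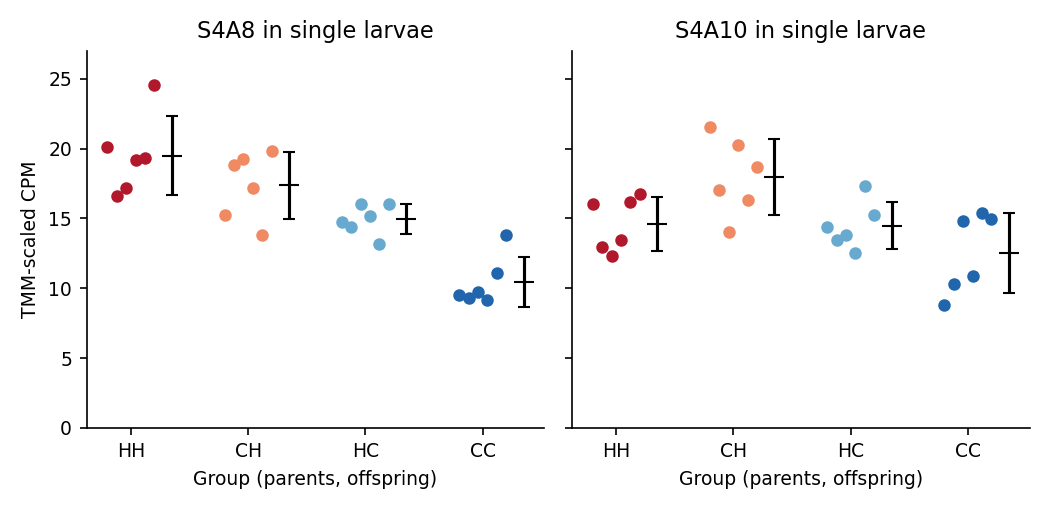
TMM-scaled CPM of S4A8 (left) and S4A10 (right) in each of 24 larvae, in the groups HH, CH, HC and CC (first letter, parents; second letter, offspring; H, HypOA; C, control); bars are means±s.d. of 6 larvae. All HH points of S4A8 lie above all HC points, whereas the HH and HC points of S4A10 lie at the same height (14.6 and 14.5 CPM on average).

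The spread between larvae differed among groups. For S4A8 the coefficient of variation was 14.5% in HH, 13.8% in CH, 7.22% in HC and 17.1% in CC, where counting error alone gives 5.97, 6.94, 7.35 and 8.71%. HC larvae thus varied in S4A8 no more than counting error alone. For S4A10 the coefficients were 13.2% in HH, 15.2% in CH, 11.6% in HC and 22.7% in CC, against 6.89, 6.83, 7.49 and 7.99% from counting. The biological coefficient of variation that edgeR fitted over all groups was 0.145 for S4A8 and 0.168 for S4A10, with a median of 0.212 over all tested transcripts, and 13.4% of transcripts had a lower value than S4A8 and 26.9% a lower value than S4A10. Transcripts with little spread are called more readily, so these values are not independent of how the pair was chosen.

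HH versus HC asks how larvae of HypOA-treated parents differed between HypOA and control rearing. S4A8 was 1.31-fold higher in HH than in HC larvae, a log2 fold change of 0.39±0.12 (s.e.) with a 95% interval of 0.14 to 0.63. All 6 HH larvae lay above all 6 HC larvae, as for 0.4% of the tested transcripts, and 0.539% had all HH larvae below all HC larvae. The difference did not pass the test across all transcripts (edgeR quasi-likelihood F-test, unadjusted P=0.00383, Benjamini-Hochberg FDR=0.295). In this fit 4 transcripts, 0.0232% of those tested, had an FDR below 0.05 (14 in a fit of only HH and HC, 64 with DESeq2, and from 2 without HH larva 4 to 8 without CC larva 2), with 1 higher in HH (0.00579%) and 3 lower (0.0174%). An unadjusted P below 0.05 was reached by 8.24%, 3.82% higher in HH and 4.41% lower. Taken as a single transcript, with no adjustment over the others, S4A8 gave an exact two-sided permutation P=0.00216 over 6 against 6 larvae. That is the smallest value that permuting single larvae allows here. Larvae were permuted as independent, although per the study's methods 2 came from each rearing container. This P and the permutation P values below may therefore be too small.

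S4A10 gave a log2 fold change of 0.01±0.14 (s.e.) between HH and HC larvae, 1.01-fold (edgeR quasi-likelihood F-test, unadjusted P=0.931, FDR=0.994). The 95% interval of −0.28 to 0.30 leaves room for a change of either sign. Of the 6 HH larvae, 3 were above the HC median.

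The S4A10 to S4A8 ratio within each larva was used to set the transcripts against each other, since gene length cancels when ratios are compared between groups. On the log2 scale the ratio was −0.33, −0.36, −0.48, −0.51, −0.26 and −0.55 in HH larvae. It was −0.03, −0.09, −0.21, −0.28, 0.39 and −0.07 in HC larvae. Only HC larva 4 reached into the HH range, and HC larva 5, the highest of its group, stood apart from the other 5. The mean ratio was 0.36 lower in HH than in HC (−0.41±0.11 in HH and −0.05±0.23 in HC, s.d., n=6 each, exact permutation test, P=0.00433, adjusted P=0.0130 over 3 tests), and all 6 HH larvae were below the HC median. Without HC larva 5 the difference was −0.28 and still passed. S4A8 was therefore higher relative to S4A10 in HH than in HC larvae. This came from S4A8, whose log2 CPM was 0.37 higher in HH than in HC, while that of S4A10 was 0.01 higher. The ratio is thus no separate evidence from the S4A8 difference, which did not pass across all transcripts. Adjustment here was over 3 tests only, and these share the same transcripts. In the groups that chose the pair the ratio averaged 0.05±0.34 in CH and 0.24±0.25 in CC (s.d., n=6 each). CH larvae ranged from −0.45 to 0.49 and spanned nearly the whole range of the other groups.

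In CH versus CC, the contrast behind the choice of the pair, S4A8 had a log2 fold change of 0.74±0.12 (s.e.), 1.67-fold, and S4A10 of 0.52±0.14, 1.44-fold. All CH larvae were above all CC larvae in S4A8, by the narrow gap between CH larva 5 and CC larva 6, both at 13.8 CPM, and in S4A10 the groups overlapped. In HH versus CC, where both generations were exposed against neither, the log2 fold change was 0.90±0.12 for S4A8, 1.87-fold with no overlap of larvae. That of S4A10 was 0.22±0.14, 1.17-fold with overlap. These comparisons share the CC larvae, so their values are not independent of each other. The share of all tested transcripts with no overlap of larvae was not computed for CH versus CC or HH versus CC. The separation of S4A8 in them is therefore only a description.

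The remaining contrasts placed parental exposure beside rearing. In HC versus CC, in which only the parents differed, the log2 fold change was 0.52±0.12 (s.e.) for S4A8 and 0.21±0.14 for S4A10, and each HC larva was above the CC median in S4A8. In HH versus CH, both HypOA-reared, it was 0.17±0.12 for S4A8 and −0.30±0.14 for S4A10, so the estimates had opposite signs for the transporters. The 95% interval was −0.08 to 0.42 for S4A8, which leaves its sign open, and −0.59 to −0.01 for S4A10. In CH versus HC, one exposed itself and the other through its parents, the log2 fold change was 0.22±0.12 for S4A8 and 0.31±0.14 for S4A10. The rearing response of larvae from HypOA-treated parents minus that of larvae from control parents was −0.35±0.17 for S4A8 and −0.51±0.20 for S4A10 on the log2 scale. Both estimates were below 0, but the choice of transcripts higher in CH than in CC favors values below 0 here. The same choice favors values below 0 in HH versus CH and above 0 in HC versus CC and in CH versus HC. For neighbours in the order of means, S4A8 overlapped between HH and CH, between CH and HC, and between HC and CC through CC larva 6. S4A10 overlapped between every pair of groups.

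**Figure D2:**
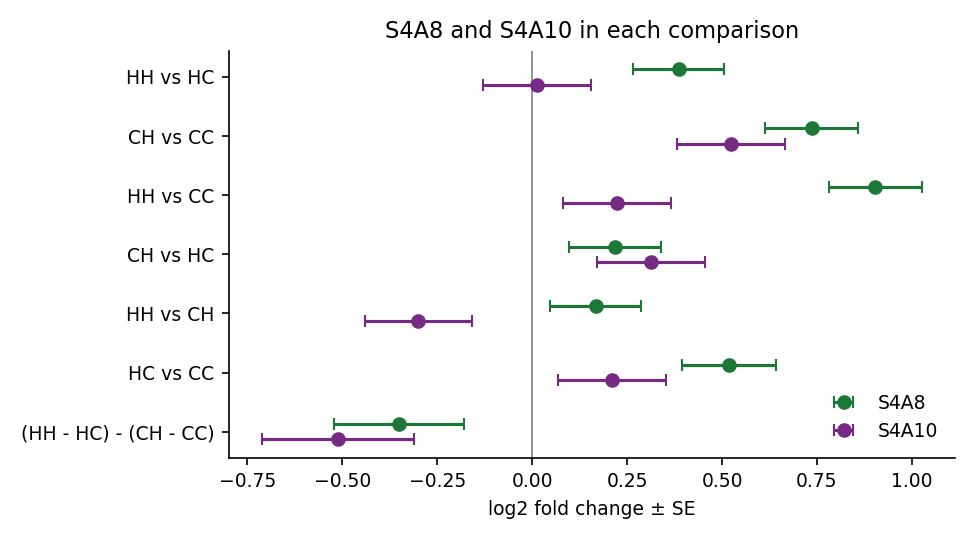
Log2 fold change (horizontal axis; points, estimates; bars, ±1 s.e. from 1 edgeR fit of 24 larvae) of S4A8 and S4A10 in 6 comparisons and, in the lowest line, the difference of rearing responses. S4A8 runs from 0.17 to 0.90 in the 6 comparisons, whereas S4A10 is at 0.01 in HH versus HC and at −0.30 in HH versus CH.

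The mean of the neuron markers stood in the same group order as S4A8, at a log2 CPM of 5.90 in HH, 5.86 in CH, 5.65 in HC and 5.29 in CC. HH and CH were close in this mean, and single markers differed in which of HH and CH was higher. The neuron marker list held 21 transcripts of 16 symbols for neuronal proteins, such as SN25A (SNAP-25, of the synaptic vesicle fusion machinery), RAB3A, BSN (bassoon, of the presynaptic active zone) and the sodium channels SCN2A and SCN8A. Their summed level was 1400 to 1845 CPM in HH larvae, 1477 to 1740 CPM in CH, 1193 to 1488 CPM in HC and 888 to 1271 CPM in CC, and no marker had a group mean of 0. In HH versus HC, 21 of 21 had a positive log2 fold change with a median of 0.25, where the median of all tested transcripts was −0.0018, and 49.7% of all transcripts were positive. Of the 21, 12 had an unadjusted P below 0.05 in the positive direction, as did 3.82% of all transcripts, and 0 passed the FDR (edgeR quasi-likelihood F-test). The 11 muscle marker transcripts, of which the myosin heavy chain MYH4 took the most reads, summed to 1734 to 4793 CPM in HH, 1645 to 3712 CPM in CH, 2048 to 5913 CPM in HC and 3978 to 5804 CPM in CC. In HH versus HC, 2 of the 11 had a positive log2 fold change, both of them titin transcripts (0.21±0.29 and 0.27±0.23 s.e.), and the median was −0.23. Of the 11, 3 had an unadjusted P below 0.05, all lower in HH, as did 4.41% of all transcripts, and 0 passed the FDR (edgeR quasi-likelihood F-test). The part of neuron or muscle content in the S4A8 difference was not tested. All marker lists came from transcripts that the study called between CH and CC, so their direction in that contrast is no independent evidence. In HH versus HC, transcripts chosen for a rearing difference were thus set against all tested transcripts, which were not so chosen. The shares over all transcripts are therefore no like-for-like background for the markers.

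Each transporter was also expressed relative to the mean log2 CPM of the neuron markers in the same larva. S4A8 relative to neuron markers averaged −1.61±0.13 in HH and −1.74±0.10 in HC (log2, s.d., n=6 each). The difference of 0.13 did not pass the exact permutation test (P=0.0974, adjusted P=0.0974). Without the markers the difference in log2 CPM was 0.37. All markers were chosen as transcripts called between CH and CC, so subtracting them can remove a rearing difference through that choice alone. The smaller value relative to the markers is therefore no measure of neuron content. S4A10 relative to neuron markers averaged −2.02±0.15 in HH and −1.79±0.18 in HC (log2, s.d., n=6 each). All 6 HH larvae were below the HC median, and the difference of −0.24 came close to the threshold without passing it (exact permutation test, P=0.0346, adjusted P=0.0519). It came from the marker mean, which was higher in HH (5.90) than in HC (5.65), while the log2 CPM of S4A10 itself differed by 0.01. Any transcript level between HH and HC would fall against these markers, so the difference is no evidence that S4A10 fell. Thus the neuron-relative estimates ran in opposite directions, S4A8 slightly up and S4A10 down, and neither was past the adjusted threshold. Calls this close to the threshold turned on single larvae. S4A10 passed without HC larva 3 (−0.29, exact permutation test, adjusted P=0.0162), HC larva 4 (−0.25, adjusted P=0.0498) or HH larva 5 (−0.28, adjusted P=0.0260), and S4A8 passed without HC larva 4 (0.16, adjusted P=0.0498). In CH the averages were −1.74±0.27 for S4A8 and −1.70±0.18 for S4A10, and in CC −1.91±0.13 for S4A8 and −1.66±0.21 for S4A10 (log2, s.d., n=6 each).

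**Figure D3:**
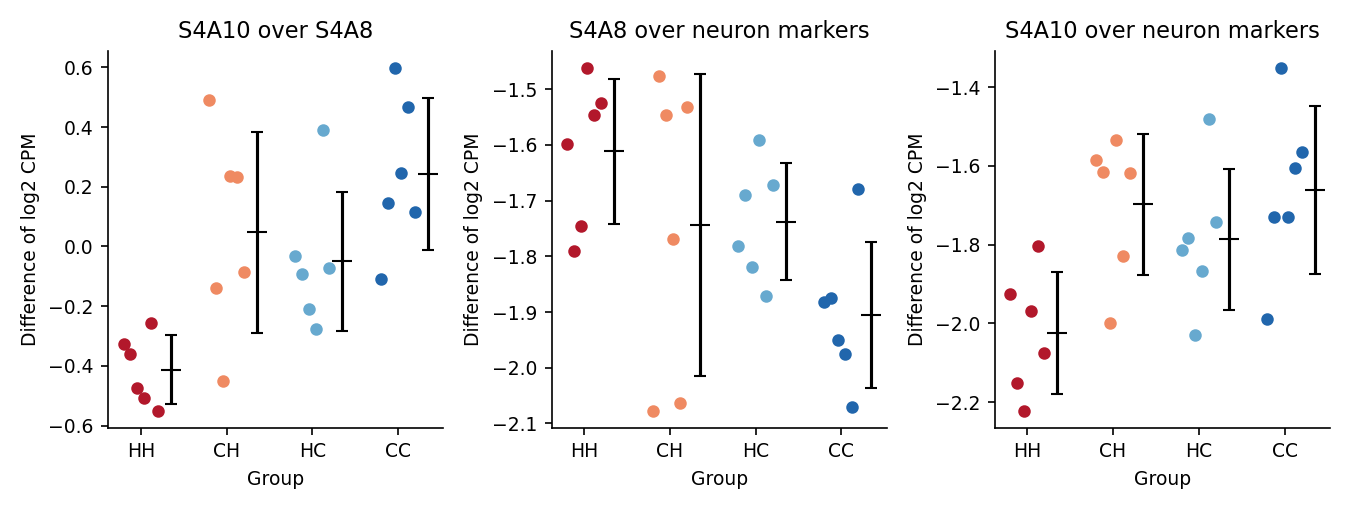
Log2 S4A10 to S4A8 ratio (left) and log2 CPM of S4A8 (middle) and S4A10 (right) minus the mean log2 CPM of 21 neuron marker transcripts, for each larva of HH, CH, HC and CC; bars are means±s.d. of 6 larvae. HH larvae have the lowest mean ratio (−0.41) and the smallest spread in it, and CH larvae spread widely in the ratio and in neuron-relative S4A8.

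Larvae of one group also differed from each other, which allowed the transcripts to be compared without the differences between groups. Log2 CPM minus the group mean was correlated over 24 larvae, with permutation of larvae within groups and adjustment over 3 pairs. S4A10 correlated with the neuron marker mean (Pearson r=0.64, permutation P=0.0042, adjusted P=0.0126, and Spearman rho=0.63, permutation P=0.00439, adjusted P=0.0132). Other tested transcripts were not ranked by their correlation with this mean, so the relation was not shown to be particular to S4A10. The relation remained at r=0.57 (permutation P=0.0117) without CC larvae 1 and 5, the larvae farthest from the median in S4A10. Within groups r was 0.60 in HH, 0.62 in CH, 0.17 in HC and 0.82 in CC (n=6 larvae each, values only). The estimates were thus positive in every group and lowest in HC, and none was tested within a group.

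For S4A8 the relation to the neuron marker mean did not pass after adjustment (r=0.48, permutation P=0.0347, adjusted P=0.0521; rho=0.37, permutation P=0.0925). Without CC larva 6 and HH larva 6, which had the highest S4A8 for their groups, r was 0.17 (permutation P=0.457), so the relation rests on these larvae. It passed, in contrast, with the median of the markers in place of their mean (r=0.63, permutation, adjusted P=0.00708), where S4A10 had r=0.58 (permutation, adjusted P=0.0163). It also passed without any one of CH larvae 1, 2, 3, 5 and 6, HC larva 4 and HH larva 4 (r=0.50 to 0.58). It was positive in 3 groups (r=0.76 in HH, 0.53 in HC and 0.81 in CC) and negative in CH (r=−0.55). Between S4A8 and S4A10 themselves r was 0.34 (permutation P=0.174, adjusted P=0.174; rho=0.30, permutation P=0.181) and 0.13 without the same larvae. By group it was 0.83 in HH, −0.25 in CH, −0.52 in HC and 0.65 in CC. A shared rise and fall of the transporters between larvae was therefore not detected over the 24 larvae, and the groups differed in sign. Whether S4A8 and S4A10 differ from each other in their relation to neuron markers was not tested.

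**Figure D4:**
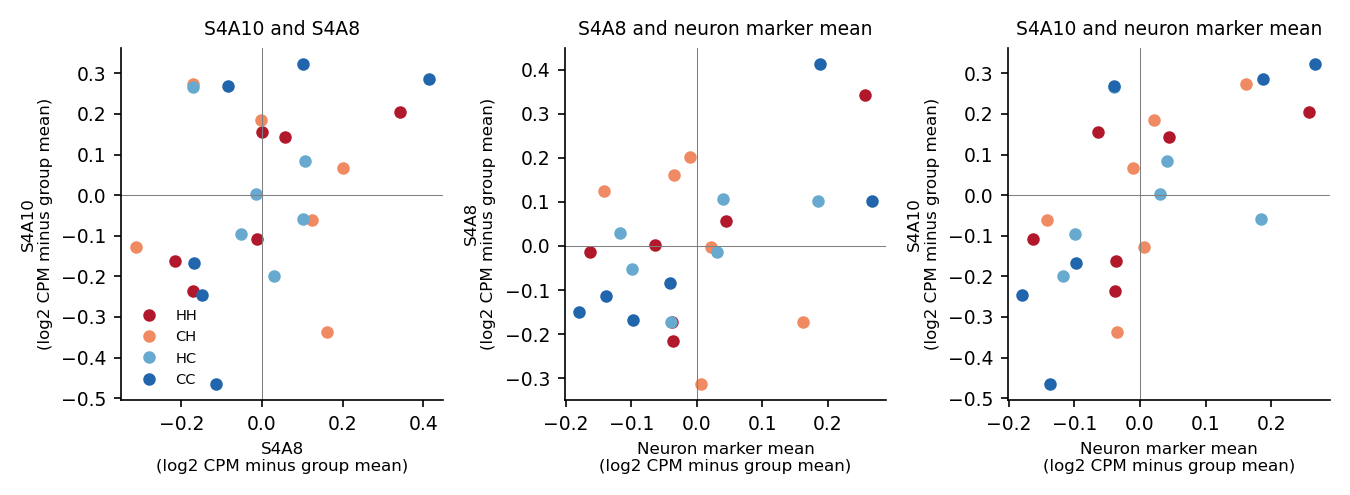
Log2 CPM minus the group mean in 24 larvae, colored by group, for S4A10 against S4A8 (left), S4A8 against the mean of neuron markers (middle) and S4A10 against that mean (right). The right panel has the tightest cloud (r=0.64), and the middle one (r=0.48) has HH larva 6 and CC larva 6 at its upper end.

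The transcripts whose residuals were most like those of each transporter were ranked over 24 larvae as a description. All values in a larva share a library, so part of any such likeness is common to many transcripts. The transcripts nearest to S4A10 were NR3BA (mme16056, r=0.84), mme14367 (r=0.82), PKCB1 (mme03637, r=0.82), SRS11 (mme13319, r=0.79) and GBRR1 (mme09773, r=0.79). GBRR1 is a rho subunit of the GABA receptor, known in vertebrates from the retina. The nearest to S4A8 were mme09327 (r=0.77), mme09846 (r=0.73) and 3 others at r=0.72, none of which had a symbol in the rows used here. No transcript stood in both sets of 5. S4A10 ranked 1747th among 17261 transcripts by likeness to S4A8, and S4A8 ranked 2485th by likeness to S4A10. The median r with all transcripts was 0.0062 for S4A8 and 0.0083 for S4A10. The background was wide, with 5th to 95th percentiles of −0.42 to 0.42 for S4A8 and −0.51 to 0.49 for S4A10. The list medians that follow lie inside these ranges. For S4A10, 21 of 21 neuron markers had a positive r, with a median of 0.48, and 3 of 11 muscle markers. Retina markers were as close to S4A10 (6 of 6 positive, median 0.49), and 3 of 4 glia markers were positive (median 0.17). For S4A8, 20 of 21 neuron markers were positive, with a median of 0.36, and 7 of 11 muscle markers. With S4A8, 5 of 6 retina markers (median 0.25) and 3 of 4 glia markers (median 0.34) were positive.

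Other transcripts of inorganic ion transport and acid-base regulation were placed beside the pair in HH versus HC. Of 14 such transcripts other than S4A8 and S4A10, 0 passed the FDR, 8 had a positive log2 fold change and the median was 0.02. In the edgeR quasi-likelihood fit 2 of the 14, both positive, reached an unadjusted P below 0.05. Over all tested transcripts 49.7% were positive, and 8.24% reached that P, 3.82% as higher in HH. The 2 were CAH10, a carbonic anhydrase-related protein (0.54±0.24 s.e., edgeR FDR=0.554), and AT2B2, a plasma membrane calcium pump (0.31±0.12, edgeR FDR=0.469). S4A8 had a larger log2 fold change than all of them except CAH10. CAH10 averaged 2.02±0.48 CPM in HH and 1.39±0.24 CPM in HC (s.d., n=6 each), a level at which few reads stand behind each value. The proton pump subunits VATE1, VATO and VPP2 of the V-type ATPase had log2 fold changes of −0.03±0.08, 0.11±0.09 and −0.02±0.10 (s.e.). AT1B4, of the sodium/potassium ATPase beta subunit family, had 0.04±0.10. S12A5, the potassium/chloride cotransporter that lowers chloride in mature mammalian neurons, had −0.16±0.13. In this contrast S4A10 thus lay with the pump subunits near 0, and S4A8 lay above them. In CH versus CC the same 14 transcripts had a median of 0.36, and S4A8 and S4A10 were above it, but all of them were chosen on that contrast. The shares over all tested transcripts are therefore no like-for-like background for these 14.

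In log2 fold change between HH and HC, transporters and enzymes of neurotransmitters stood closer to S4A8 than the ion transport transcripts did. Of 10 such transcripts, 8 had a positive value, with a median of 0.25, which was also the median of the neuron markers. Of the 10, 4 had an unadjusted P below 0.05, all positive, and 0 passed the FDR (edgeR). Over all tested transcripts 49.7% were positive and 3.82% were positive with an unadjusted P below 0.05. Unlike these 10, that background was not chosen on CH versus CC. The 4 were VGL2A, a vesicular glutamate transporter, with 0.41±0.13 (s.e.), both transcripts of SC6A1, a GABA transporter, with 0.39±0.12 and 0.30±0.11, and VIAAT (mme03034), the vesicular inhibitory amino acid transporter, with 0.28±0.12. The other VIAAT transcript (mme07651) had 0.05±0.11. DCE2, which makes GABA, had 0.23±0.11. Both transcripts of S6A13, another GABA transporter known in mammals mainly from outside neurons, had −0.25±0.28 and −0.14±0.22. Over larvae within groups, S4A8 had r=0.43 with VGL2A and 0.45 with each SC6A1 transcript, and S4A10 had 0.12 with VGL2A and 0.62 and 0.58 with the SC6A1 transcripts. With S4A8, VIAAT had −0.03 (mme07651) and 0.14 (mme03034), DCE2 0.15, CLAT 0.43 and VACHA −0.04. With S4A10, VIAAT had 0.36 (mme07651) and 0.21 (mme03034), DCE2 0.30, CLAT 0.49 and VACHA 0.27. Of the 10 transcripts, 6 had a positive r with S4A8 (median 0.14) and 8 with S4A10 (median 0.28). The lowest for both was S6A13 (mme10389), at −0.60 with S4A8 and −0.55 with S4A10. These are descriptions over 24 larvae with no test. The symbols SC6A1, VIAAT and S6A13 each cover more than 1 gene ID, and how the counting divided reads between near-identical copies was not given in the sources used here.

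Glia and retina markers were also examined, since whole larvae hold both. Of 4 glia transcripts 3 were positive in HH versus HC, with a median log2 fold change of 0.17. Of 6 retina transcripts 2 were positive, with a median of −0.08. Glia markers summed to 394 to 579 CPM in HH, 371 to 467 CPM in CH, 321 to 405 CPM in HC and 256 to 348 CPM in CC. Retina markers summed to 59.4 to 76.9 CPM in HH, 77.3 to 95.8 CPM in CH, 62.4 to 78.8 CPM in HC and 42.3 to 70.0 CPM in CC. Retina markers and S4A10 both had their highest group mean in CH, which is favored by their choice as transcripts called between CH and CC. Glia markers together and S4A8 both had their highest group mean in HH. Among the 4 glia transcripts, EAA2 and HECAM were highest in HH, MLC1 in CH (16.8 CPM) and MYPR in HC (14.2 CPM). EAA2 made up most of the glia sum. The part of either tissue in the transporter levels was not tested.

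**Figure D5:**
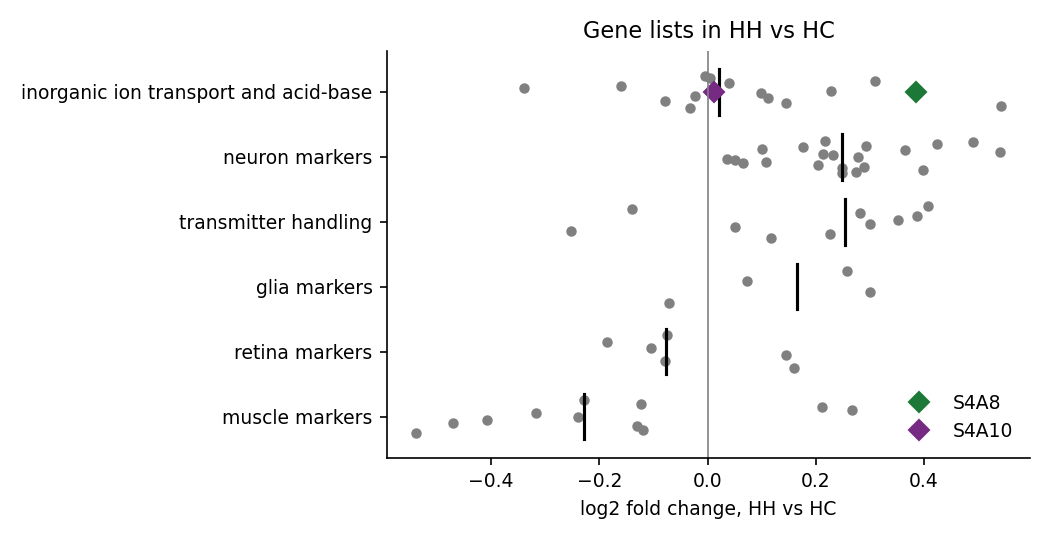
Log2 fold change in HH versus HC (horizontal axis) of each transcript in 6 lists (gray points; black lines, medians without the pair), with S4A8 and S4A10 as diamonds in the list of inorganic ion transport and acid-base regulation. S4A8 (0.39) lies above the median of the 21 neuron markers (0.25), and S4A10 (0.01) lies at the median of its own list (0.02).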

How the data were processed

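The authors prepared directional, paired-end libraries from whole larvae, aligned reads with STAR 2.6.1d and deposited raw read counts per transcript from HTSeq 0.11.1 (versions per the submitters' processing notes, which name Trimmomatic where the paper names Fastp). The reference was a published silverside genome, whose build name, like the counting options, is not given in the sources. Paper and labels differ in DO, PCO2 and temperature, which the labels give as 20°C. Label values are printed.

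Counts of 20651 entries were summed to 20210 genes, filtered with filterByExpr (minimum count 10, minimum total 15) to 17262, scaled by TMM and fitted in R 4.3.3 with edgeR 4.0.16 (quasi-likelihood, legacy form, 1 coefficient per group, 24 larvae). Calls used a Benjamini-Hochberg FDR of 0.05. Reads in unassigned classes were left out. The s.e. is the log2 fold change divided by the square root of F. Log2 CPM used a prior count of 2. Single values were compared by exact two-sided permutation, and correlations by 100000 permutations within groups. The code was tested on simulated data.

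Members and lists were chosen with earlier results of these data known. The transcripts named were the pair, the 5 most correlated with each, and genes of the 2 transport lists (carbonic anhydrase, V-type ATPase, sodium/potassium ATPase, S12A5). AT2B2 and the transmitter transcripts given with values were named after these were seen. Symbols covered 1208 transcripts of the study's own list.

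Alternatives were DESeq2 1.42.0, limma-voom (limma 3.58.1), RLE factors, no filter, the newer quasi-likelihood form, leaving out each larva, fitting only HH and HC, a replicate block, a prior count of 0.25 and the median of neuron markers. Per the study's methods 2 larvae came from each of 3 rearing containers per group. The labels do not give containers, so larvae were treated as independent and P values may be too small.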

Additional observations from a re-analysis of the deposited data

Results flagged for a closer look

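The log2 ratio of S4A10 to S4A8 in HC larva 5 was 0.39, apart from the other HC larvae, which lay between −0.28 and −0.03. The gap was 0.632 of the group's range, where Dixon's 95% limit for 6 samples is 0.625. It was the only such case among 20 sets of 6 larvae examined, and chance gives about 1 in 20. This larva had the highest S4A10 of its group (17.3 CPM) and the lowest S4A8 (13.2 CPM).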

How the results depend on the processing

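S4A8 in HH versus HC stayed positive under every alternative run (0.37 to 0.39 with other tools, filters and scalings). Its FDR stayed above 0.05 in each of them (0.156 with DESeq2 to 0.343 without a filter), whereas the exact permutation test of the single transcript passed (0.37, exact P=0.00216), since it is not adjusted over the others. With 1 larva left out the log2 fold change was 0.31 (without HH larva 6, FDR=0.586 in edgeR) to 0.43. S4A10 in HH versus HC ran from −0.031 to 0.071 with 1 larva left out, and its sign turned negative without HC larva 2, 3 or 4 (−0.0077, −0.00043 and −0.026) or HH larva 1, 5 or 6 (−0.016, −0.018 and −0.031), none of them past the threshold. The number of transcripts called in HH versus HC was 4, against 14 in a fit of only HH and HC and 64 with DESeq2. It ranged from 2 (without HH larva 4) to 8 (without CC larva 2) with 1 larva left out, and was 7 without CH larva 2. The cause was not tested. The ratio of S4A10 to S4A8 ran from −0.41 to −0.28, with adjusted P from 0.00649 to 0.0325 (exact permutation tests). Relative to neuron markers, S4A8 ran from 0.10 to 0.16 and S4A10 from −0.29 to −0.18. Correlations with 1 larva left out ran from 0.22 to 0.45 between the pair, from 0.35 to 0.58 for S4A8 and neuron markers (0.63 with the marker median), and from 0.58 to 0.70 for S4A10 and neuron markers.

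Replicate numbers were not taken to pair the samples. HH and HC larvae of the same number correlated at −0.16 to 0.07 in their deviations, and 3 of 6 correlated best with their own number. Over all 36 same-number pairs of groups r was −0.27 to 0.24 and above 0.1 in 5, of which 4 were CH and HC larvae (0.14 to 0.24). With the replicate block S4A8 gave 0.38 and S4A10 0.01 in HH versus HC, and 3 transcripts were called. At 115 to 351 reads of S4A8 per larva, counting error alone averaged 5.97 to 8.71% of its level by group. Differences between single larvae of that size or smaller cannot be told from counting error.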
